A study of Mus musculus with 46 samples.

Results

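Solute carriers are the membrane proteins that move amino acids, sugars, vitamins, metals and ions across the plasma membrane, the mitochondrial inner membrane and other membranes of a cell. The genes described here are the 136 solute carrier genes that were expressed in early mouse embryos with and without Rbbp5, a core subunit of the complexes that methylate histone H3 at lysine 4. They were chosen by name (Slc, a number, the letter a and a number) and by a mean level of at least 1 FPKM over the 20 embryo libraries. FPKM, the unit of the authors' table, is the number of fragments scaled to transcript length and to the mapped fragments of the library. Of 7182 genes in the table, 180 carried such a name. Slc2a1, Slc2a8, Slc16a3 and Slc38a4 were left out, and 40 of the remaining 176 lay under the level. Just inside the level were Slc6a15 at 1.08 FPKM, Slc19a3 at 1.09 FPKM and Slc27a3 at 1.10 FPKM. Just outside it were Slc22a21 at 0.982 FPKM, Slc25a37 at 0.927 FPKM and Slc15a2 at 0.921 FPKM.

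RNA was measured with SMART-seq2, a full-length cDNA protocol for very small inputs, in 3 Rbbp5 knockout (KO) and 3 wild-type (WT) E5.5 epiblasts cut out by hand, and in 7 KO and 7 WT inner cell masses (ICM) of E3.5 blastocysts freed by immunosurgery. Each of these 20 libraries came from a single embryo. The other RNA libraries each came from a single E4.5 cell: 3 KO and 7 WT epiblast cells, 2 KO cells and 1 WT cell of the primitive endoderm. Knockout was made in zygotes, either with Cas9 mRNA and a guide RNA against Rbbp5 in wild-type embryos or with Cre mRNA in embryos homozygous for a floxed Rbbp5 allele. The labels do not say which route a given KO library took, and such embryos can be mosaic. Injected embryos were cultured to the blastocyst stage, or moved at the 2-cell stage into recipient females. Whether the WT embryos were injected is not stated. Rbbp5 RNA was not analysed here, and the knockout could not be checked in it.

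As background, an embryo before implantation lives on the fluid of the reproductive tract and on its own stores, and takes up amino acids, pyruvate, lactate and later glucose through solute carriers. Many carriers of the plasma membrane are exchangers or sodium-coupled importers with overlapping substrates, and some light chains of the SLC7 family reach the membrane only together with the heavy chain encoded by Slc3a2. Carriers of the SLC25 family sit mostly in the mitochondrial inner membrane and pass nucleotides, phosphate, citrate, glutamate and cofactors between mitochondria and cytosol. Zinc and other metals enter the cytosol through the SLC39 family and leave it through the SLC30 family.

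The libraries labelled KO E5.5 epiblast went against that label. Of 10 trophectoderm markers in the table, 9 were tested and 9 were higher in KO than in WT, with a median change of 3.97 on the log2(FPKM + 1) scale. Their summed level was 1937 to 3393 FPKM in KO E5.5 libraries, against 95.2 to 145 FPKM in WT E5.5 libraries. Elf5, a marker of trophectoderm and extraembryonic ectoderm, was at 31.6, 30.1 and 33.4 FPKM in KO libraries, against 0, 0 and 0.0451 FPKM in WT libraries. Cdx2, another defining marker, was at 0, 3.21 and 0.828 FPKM in KO libraries and listed at 0 in all 3 WT libraries. Pou5f1, which marks epiblast, was at 4.57, 5.07 and 19.9 FPKM in KO libraries, against 190, 126 and 103 FPKM in WT libraries. It belongs to a list of naive epiblast markers that did not all move alike. Of 4 tested, Pou5f1 and Nanog were called lower in KO and Esrrb was called higher. Esrrb was at 1.35, 5.6 and 4.9 FPKM in KO libraries, against 0.0739, 0 and 0.0452 FPKM in WT libraries. Klf2 and Klf4 also lay higher in every KO library than in any WT library, at 1.29 FPKM or less. The formative epiblast markers (4 in the table, 2 called lower, Otx2 and Dnmt3b) summed to 41.0 to 136 FPKM in KO and 418 to 493 FPKM in WT. Primitive endoderm markers summed to 4.74 to 9.74 FPKM in KO and 13.8 to 15.9 FPKM in WT, with Gata4, Gata6 and Sox17 at or near 0. All 3 KO libraries were affected, so no comparison without them can be given. Every E5.5 result below is therefore a difference between the libraries labelled KO and WT epiblast, and the part of the trophectoderm RNA in each was not tested. In bulk samples fewer cells of a type and less RNA per cell cannot be told apart. In the ICM, KO libraries reached a trophectoderm sum of at most 163 FPKM, and WT ICM 1, 4 and 3 lay above that at 984, 294 and 249 FPKM. In single E4.5 cells Gata4, a primitive endoderm marker, was at 25.1 FPKM or more in every primitive endoderm cell and at most at 0.0971 FPKM in epiblast cells. The 10 primitive endoderm markers summed to 624 FPKM or more in primitive endoderm cells and to at most 65.4 FPKM in epiblast cells. Not every marker parted the cells: Sox7 was at 22.0 FPKM in WT epiblast cell 1 and 0.126 FPKM in KO primitive endoderm cell 1. Gata6 was at only 1.68 FPKM in the WT primitive endoderm cell. Pou5f1 was at 514 FPKM or more in every epiblast cell but also at 322 FPKM or more in the primitive endoderm cells.

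Depth is not given by FPKM, and 0.518% of the values above 0 lay under 0.001 FPKM, so the table does not hold whole reads and an exact 0 means only that a gene is listed at 0. Genes at 1 FPKM or more numbered 5457 to 5895 in KO E5.5, 5738 to 5805 in WT E5.5, 3628 to 5136 in KO ICM and 5110 to 5718 in WT ICM libraries. KO ICM 1, 4 and 6 had the fewest, 3628, 3642 and 3883. Y-linked genes summed to under 1 FPKM in KO E5.5 1 and to 19.2 FPKM or more in the other 5 E5.5 libraries.

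The 136 members were grouped by the substrate they are best known for. Mitochondrial carriers were the most numerous with 29 members, followed by 21 carriers of amino acids and peptides and 20 of zinc and other metals. There were 18 carriers of sodium, protons, chloride, bicarbonate, phosphate and similar ions, and 15 of lipids, choline and vitamins. Nucleosides and nucleotide sugars had 11 members, carboxylates and organic ions 10, and sugars and inositol 10. The last 2 members are not transporters: Slc9a3r1, a PDZ scaffold that binds carriers and receptors, and Slc7a6os, a gene named for its place opposite Slc7a6. Of the 136 genes, 21 overlap another protein-coding gene, and reads of such neighbours could be counted for either. Among 51 members picked by the naming rule 9 do so: Slc7a3, Slc7a7, Slc46a1, Slc5a6, Slc16a6, Slc31a1, Slc35a4, Slc24a5 and Slc10a3.

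Promoters are shown for 6 members, the 3 higher and the 3 lower with the largest changes between KO and WT at E5.5 among named members with exactly 1 promoter in the RefSeq table (build GRCm38.p6), to show the control regions of members called in each direction. Each runs from 250 bases before to 50 bases after the gene's start on the gene's own strand, and CG dinucleotides, the sites of DNA methylation and of CpG-island recognition by methyltransferase complexes, are in capitals. Slc7a8, Slc25a4 and Slc46a1 were higher, and Slc1a3, Slc25a13 and Slc25a1 were lower.
Slc7a8, chr14:54781837-54782136, minus strand: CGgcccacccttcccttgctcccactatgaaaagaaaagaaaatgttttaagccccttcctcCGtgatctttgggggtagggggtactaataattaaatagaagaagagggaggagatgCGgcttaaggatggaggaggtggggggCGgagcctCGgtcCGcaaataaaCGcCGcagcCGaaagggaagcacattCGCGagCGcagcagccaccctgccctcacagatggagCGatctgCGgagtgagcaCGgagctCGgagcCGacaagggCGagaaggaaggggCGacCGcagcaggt
Slc25a4, chr8:46211013-46211312, minus strand: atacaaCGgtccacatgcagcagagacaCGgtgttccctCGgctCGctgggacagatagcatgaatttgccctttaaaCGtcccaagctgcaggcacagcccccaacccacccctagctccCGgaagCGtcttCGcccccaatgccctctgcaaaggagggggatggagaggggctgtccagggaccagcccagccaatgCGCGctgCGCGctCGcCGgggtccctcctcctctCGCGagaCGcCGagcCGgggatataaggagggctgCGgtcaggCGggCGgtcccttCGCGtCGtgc
Slc46a1, chr11:78465451-78465750, plus strand: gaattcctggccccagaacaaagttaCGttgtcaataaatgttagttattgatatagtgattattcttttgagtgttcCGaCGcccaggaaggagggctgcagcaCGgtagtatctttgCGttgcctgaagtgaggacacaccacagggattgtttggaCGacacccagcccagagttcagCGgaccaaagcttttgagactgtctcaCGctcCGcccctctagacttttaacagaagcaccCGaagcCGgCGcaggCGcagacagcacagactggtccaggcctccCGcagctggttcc
Slc1a3, chr15:8710758-8711057, minus strand: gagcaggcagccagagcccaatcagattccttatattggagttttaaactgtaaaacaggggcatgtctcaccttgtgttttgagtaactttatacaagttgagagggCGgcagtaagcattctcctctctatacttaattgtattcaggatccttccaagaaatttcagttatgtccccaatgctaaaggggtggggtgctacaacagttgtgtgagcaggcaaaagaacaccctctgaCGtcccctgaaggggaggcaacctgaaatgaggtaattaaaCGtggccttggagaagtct
Slc25a13, chr6:6217124-6217423, minus strand: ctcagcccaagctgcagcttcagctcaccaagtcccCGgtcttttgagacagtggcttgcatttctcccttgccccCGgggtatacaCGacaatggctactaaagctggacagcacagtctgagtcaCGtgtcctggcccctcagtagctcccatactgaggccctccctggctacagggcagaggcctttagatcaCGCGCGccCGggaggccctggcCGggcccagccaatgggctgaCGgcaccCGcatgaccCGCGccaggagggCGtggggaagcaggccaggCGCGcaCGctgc
Slc25a1, chr16:17928170-17928469, minus strand: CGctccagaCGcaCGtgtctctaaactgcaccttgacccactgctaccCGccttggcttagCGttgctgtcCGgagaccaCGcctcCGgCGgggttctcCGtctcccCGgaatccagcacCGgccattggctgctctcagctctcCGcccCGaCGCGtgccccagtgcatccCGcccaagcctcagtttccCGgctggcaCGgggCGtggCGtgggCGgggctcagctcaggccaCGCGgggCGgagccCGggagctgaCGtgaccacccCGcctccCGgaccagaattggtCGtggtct

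These 300-base windows held 20 CG in Slc7a8, 25 in Slc25a4, 14 in Slc46a1, 3 in Slc1a3, 17 in Slc25a13 and 30 in Slc25a1. CG-poor Slc1a3 and CG-rich Slc25a1 were thus both among the lower members, and the higher and lower examples overlapped in CG number. Over the members, 140 promoters of 103 genes were in the table, with a median of 18 CG, against 7 CG over all 32851 promoters. At least 10 CG were held by 77.9% of member promoters and by 43.5% of all promoters. Promoters of members higher at E5.5 had a median of 15.5 CG, those of members lower 15 CG and those of members not called 20 CG. The E-box CACGTG, searched on both strands, was in 15.7% of member promoters and 7.15% of all promoters, and among the 6 shown it was in Slc25a13 and Slc25a1. The AP-1 motif TGACTCA was in 2.14% of member promoters and 5.20% of all promoters. In Slc25a13 its match lies on the strand opposite the printed one and overlaps the E-box. The motif TGATGCA, a form of the amino acid response element bound by ATF4, was in 2.14% of member promoters and 3.15% of all promoters. Members were kept for their level, while the full set of promoters was not filtered by level. Promoters of other genes at that level were not counted, so these contrasts cannot separate membership from level. A match of letters is not a site of binding.

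Members took about 1 in 100 of the summed FPKM of a library. Their share was 0.945 to 1.10% in KO E5.5, 0.927 to 1.01% in WT E5.5, 0.384 to 1.26% in KO ICM and 1.05 to 1.37% in WT ICM libraries. KO ICM 4, 1 and 6 had the lowest shares, 0.384, 0.469 and 0.542%, and only 56, 63 and 68 members at 1 FPKM or more. The other 4 KO ICM libraries had 90 to 107 such members and WT ICM libraries 107 to 127, so the 3 libraries lay below all others and the remaining 4 mostly below WT.

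**Figure D1:**
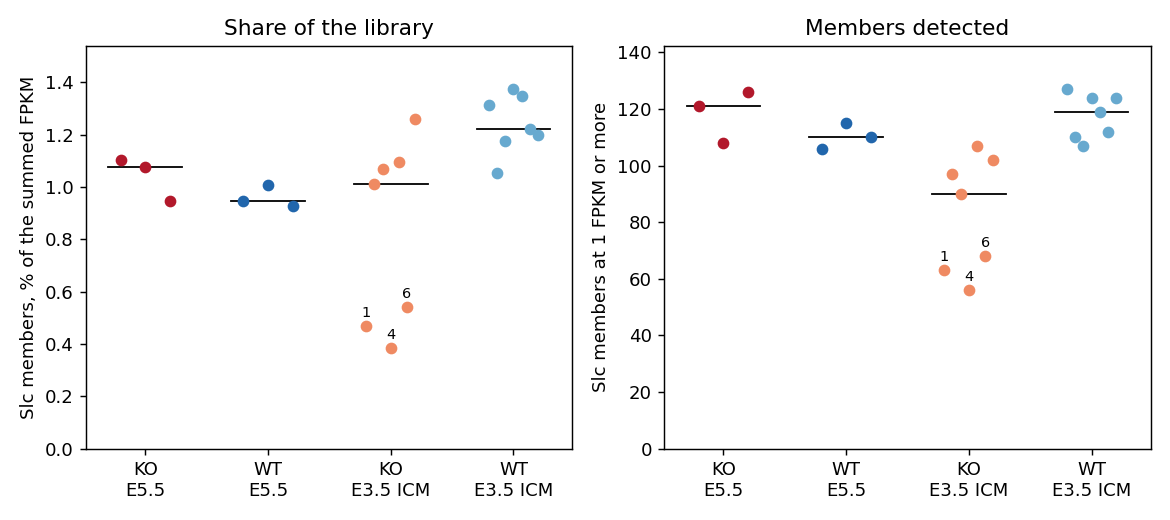
Share of summed FPKM held by the 136 Slc members (left, percent) and number of members at 1 FPKM or more (right) in each embryo library, with KO left of WT at each stage; points are libraries and bars are group medians. KO ICM libraries 1, 4 and 6 lie at 0.384 to 0.542% and 56 to 68 members, below every other library.

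A few mitochondrial carriers held a large share of the RNA of the family. Slc25a5, the ADP/ATP carrier ANT2, averaged 845 FPKM over the 20 embryo libraries, and Slc25a3, the mitochondrial phosphate carrier, 661 FPKM. Slc25a4, the ADP/ATP carrier ANT1, averaged 137 FPKM. Together these 3 members, the most abundant by mean, took 40.3 to 48.9% of the members' summed FPKM in KO E5.5, 39.6 to 49.1% in WT E5.5, 58.5 to 68.4% in KO ICM and 43.1 to 58.7% in WT ICM libraries. Slc25a4 and Slc25a5 are close paralogs, and how the authors' counting treated reads that match both is not given. The median mitochondrial carrier was at 6.32 FPKM, close to the median carrier of amino acids and peptides at 6.75 FPKM and above those of ions at 3.21 FPKM and carboxylates at 3.28 FPKM. Outside mitochondria the most abundant members were Slc43a3, a purine nucleobase transporter, at 111 FPKM, and Slc3a2, the heavy chain of heteromeric amino acid exchangers, at 87.2 FPKM. Slc35a4, of the nucleotide sugar transporter family, followed at 53.9 FPKM and Slc24a5, a potassium-dependent sodium/calcium exchanger, at 49.0 FPKM.

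Between the WT stages more members were lower than higher at E5.5. In WT E5.5 epiblast against WT E3.5 ICM, 134 members passed the filter of a mean of 1 FPKM and 60 were called at an adjusted p under 0.05, 22 higher and 38 lower. Over all 6022 genes tested 56.3% were called, 37.3% higher and 18.9% lower. The median change was -0.16 log2 units over members and 0.43 over all genes. Members were higher in 16.4% of those tested, below the share of the table. Members had first been kept by their mean over all 20 embryo libraries, KO included, most of which are ICM. Such a mean keeps a gene high only in ICM more readily than a gene high only at E5.5. All genes were filtered only on the WT libraries compared, which also hold more ICM than E5.5 libraries. The lower share of members therefore cannot be separated from how they were chosen. The WT E5.5 and WT ICM libraries did not overlap in 56 members, and in 49.7% of all genes. Under quantile normalization, which sets the median of all genes to 0.09, 65 members were called, 16 higher and 49 lower. Of 20 amino acid and peptide carriers, 7 were higher and 5 lower, 60% of the group and near the 56.3% of all genes. Of 15 carriers of lipids, choline and vitamins, 0 were higher and 5 lower. Markers of other cell types moved as well: 4 of 6 primitive endoderm markers tested (Col4a1, Dab2, Gata6, Pdgfra) and 3 of 7 trophectoderm markers (Cldn4, Gata3, Tead4) were lower at E5.5. Primitive endoderm markers summed to 13.8 to 15.9 FPKM in WT E5.5 and 56.6 to 237 FPKM in WT ICM libraries. Trophectoderm markers summed to 95.2 to 145 FPKM in WT E5.5 and 48.2 to 984 FPKM in WT ICM libraries, and the part of these markers in the result was not tested.

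Slc7a3, which imports arginine and lysine, was at 132, 214 and 294 FPKM in WT E5.5 libraries, against 0 to 2.16 FPKM (median 0.22) in WT ICM libraries. It was the member with the largest increase, 7.10 ± 0.40 log2 units (SE, adjusted p = 1.57e-08), and the groups did not overlap. Slc38a2, a sodium-coupled carrier of glutamine and other neutral amino acids, was at 48.9, 61.1 and 64.7 FPKM in WT E5.5, against 0 to 2.94 FPKM (median 1.76) in WT ICM, a change of 4.54 ± 0.40 (adjusted p = 9.02e-07). Slc7a7, a light chain of Slc3a2 that exchanges cationic for neutral amino acids, was at 35.2, 34.8 and 40.2 FPKM in WT E5.5, against 0.349 to 3.58 FPKM (median 1.51) in WT ICM. Its change was 3.90 ± 0.35 (adjusted p = 1.04e-06). Slc1a5, the glutamine carrier ASCT2, was at 36.9, 41.2 and 32.9 FPKM in WT E5.5, against 1.91 to 8.19 FPKM (median 3.47) in WT ICM, and rose by 3.07 ± 0.34 (adjusted p = 6.52e-06). Every WT E5.5 library lay above every WT ICM library for these 4 carriers. Slc38a1, a relative of Slc38a2, rose by 1.84 ± 0.39 (adjusted p = 0.00134). The heavy chain Slc3a2 did not pass the test (0.33 ± 0.18, adjusted p = 0.129), with 83.8, 89.2 and 105 FPKM in WT E5.5 and 63.5 to 90.1 FPKM in WT ICM.

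The glutamate carrier Slc1a1 went the other way. It was listed at 0 in all 3 WT E5.5 libraries, against 13.7 to 78.3 FPKM (median 43.1) in WT ICM libraries, and the groups did not overlap (adjusted p = 4.11e-07). Slc43a3 was at 2.36, 1.85 and 3.78 FPKM in WT E5.5, against 146 to 269 FPKM (median 178) in WT ICM. That was the largest decrease of any member, -5.68 ± 0.23 (adjusted p = 3.84e-10), and the groups lay far apart. Slc5a11, a sodium/myo-inositol carrier, was at 3.53, 2.17 and 2.59 FPKM in WT E5.5, against 15.3 to 183 FPKM (median 77.6) in WT ICM, a change of -4.08 ± 0.57 (adjusted p = 4.55e-05). Slc4a11, a borate-transporter-related carrier of the SLC4 family, changed by -3.98 ± 0.44, Slc34a2, a sodium-phosphate cotransporter, by -3.71 ± 0.47 and Slc24a5 by -3.50 ± 0.50. Among vitamin carriers Slc5a6, which takes up biotin and pantothenate, changed by -3.85 ± 0.57, and Slc46a1, the proton-coupled folate transporter, by -3.38 ± 0.45. Slc39a4, a plasma membrane zinc importer, was at 9.16, 6.05 and 12.0 FPKM in WT E5.5, against 48.6 to 152 FPKM (median 92.9) in WT ICM, and fell by 3.12 (SE 0.34, adjusted p = 5.99e-06). Slc37a2, a sugar phosphate exchanger, fell by 2.88 (SE 0.43).

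Other zinc carriers rose between the stages. Slc39a7, which releases zinc from the endoplasmic reticulum, was at 41.0, 49.3 and 50.7 FPKM in WT E5.5, against 1.13 to 11.3 FPKM (median 4.97) in WT ICM, a change of 2.98 ± 0.49 (adjusted p = 0.000175). Slc39a10, a plasma membrane zinc importer, rose by 1.73 ± 0.42 (adjusted p = 0.00351). In all, 4 of 19 metal carriers tested were higher and 6 lower, against 37.3% and 18.9% of all genes. The scaffold gene Slc9a3r1 was at 121, 98.9 and 89.4 FPKM in WT E5.5, against 1.35 to 15.3 FPKM (median 4.30) in WT ICM, a change of 4.14 ± 0.55 (adjusted p = 3.24e-05). Of 29 mitochondrial carriers 4 were higher and 6 lower. The citrate carrier Slc25a1 rose by 1.83 ± 0.46 and the glutamate carrier Slc25a22 by 1.26 ± 0.36, while Slc25a3 changed by -0.95 ± 0.14 and Slc25a4 by -1.44 ± 0.26. The call of Slc25a22 was lost without WT E5.5 1 or WT E5.5 2 (adjusted p = 0.0503 and 0.0674).

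**Figure D2:**
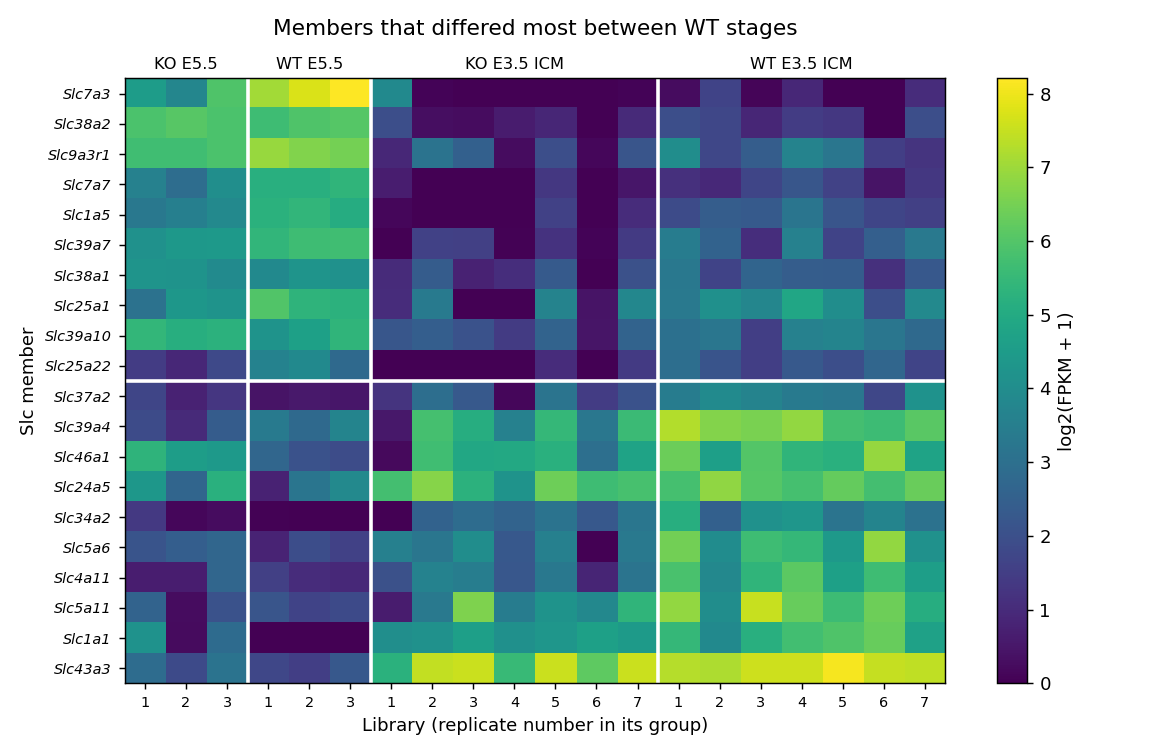
Level, log2(FPKM + 1), of the 10 members that rose and the 10 that fell most in WT E5.5 epiblast against WT E3.5 ICM, in each of the 20 embryo libraries; columns are libraries by replicate number and the white line parts the risen (top) from the fallen (bottom) members. WT E5.5 libraries are bright above the line and dark below it, and KO E5.5 libraries are darker than WT E5.5 for Slc7a3, Slc7a7, Slc1a5 and Slc25a22.

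At E5.5 the knockout libraries differed from wild type in which carriers they held more than in how much carrier RNA they held in all. Of 125 members tested, 52 were called, 33 higher and 19 lower in KO. Among all 5956 genes tested 34.1% were called, 15.6% higher and 18.5% lower, so that 26.4% of members higher stood against 15.6% of the table and 15.2% lower against 18.5%. The median change was 0.24 log2 units over members and -0.07 over all genes. The 3 KO and 3 WT libraries did not overlap in 66 members, and in 49.2% of all genes. The WT E5.5 libraries are shared with the comparison of stages. The 11 members not tested were under a mean of 1 FPKM in these 6 libraries.

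Of 20 amino acid and peptide carriers 7 were lower in KO and 3 higher, against 18.5% and 15.6% of all genes. Slc7a3 was at 22.1, 12.6 and 60.7 FPKM in KO, against 132, 214 and 294 FPKM in WT libraries, a change of -2.92 ± 0.53 (adjusted p = 0.00485). Slc1a3, the glutamate and aspartate carrier GLAST, was at 0.522, 1.96 and 4.26 FPKM in KO, against 13.8, 15.9 and 25.7 FPKM in WT, a change of -2.71 ± 0.43 (adjusted p = 0.00166). Both groups were well apart in these genes. Slc7a7 was at 11.1, 6.58 and 15.5 FPKM in KO, against 35.2, 34.8 and 40.2 FPKM in WT, and fell by 1.72 (SE 0.28, adjusted p = 0.00149). Slc1a5 was at 8.85, 10.5 and 13.6 FPKM in KO, against 36.9, 41.2 and 32.9 FPKM in WT, and fell by 1.68 (SE 0.22, adjusted p = 0.000475). The highest KO library again lay below the lowest WT library. The taurine carrier Slc6a6, the neutral amino acid carrier Slc43a2 and Slc6a15, a sodium-coupled carrier of neutral amino acids, were the other 3 that fell, by 0.89, 1.23 and 1.73.

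The 3 amino acid carrier genes that rose are the heavy chain Slc3a2 and its light chains Slc7a8 and Slc7a6. Slc7a8, which exchanges neutral amino acids, was at 32.9, 12.5 and 11.5 FPKM in KO, against 0.899, 0.370 and 0.377 FPKM in WT. This was the largest increase of any member, 3.54 ± 0.39 (adjusted p = 0.000177), with no overlap. Slc3a2 was at 261, 260 and 165 FPKM in KO, against 83.8, 89.2 and 105 FPKM in WT, a change of 1.27 ± 0.21 (adjusted p = 0.00152). Slc7a6, a light chain for cationic and neutral amino acids, rose by 0.91. Another light chain among the members, Slc7a7, was among those that fell. Slc6a14, a broad amino acid importer, was at 52.0, 0.368 and 2.55 FPKM in KO and listed at 0 in WT, with the level set by 1 KO library (adjusted p = 0.11). Slc1a1 was at 17.0, 0.187 and 6.34 FPKM in KO and listed at 0 in WT (adjusted p = 0.0605). Slc38a2, so different between the stages, was at 58.3, 66.8 and 58.4 FPKM in KO and 48.9, 61.1 and 64.7 FPKM in WT, and did not pass the test (0.08 ± 0.18, adjusted p = 0.773).

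Mitochondrial carriers moved both ways, 7 higher and 7 lower of 28 tested, against 15.6% and 18.5% of all genes. Slc25a4 was at 254, 545 and 272 FPKM in KO, against 53.2, 47.5 and 54.6 FPKM in WT, a change of 2.67 ± 0.27 (adjusted p = 0.000136). Its paralog Slc25a5 was at 656, 578 and 486 FPKM in KO, against 862, 776 and 686 FPKM in WT, lower in every KO library but short of the threshold (-0.44 ± 0.16, adjusted p = 0.053). The 2 aspartate/glutamate carriers of the malate-aspartate shuttle went opposite ways. Slc25a12 was at 18.1, 15.6 and 13.6 FPKM in KO, against 2.86, 2.24 and 3.67 FPKM in WT (2.10 ± 0.26, adjusted p = 0.000316). Slc25a13 was at 1.07, 2.27 and 10.03 FPKM in KO, against 21.0, 19.1 and 20.1 FPKM in WT (-2.32 ± 0.53, adjusted p = 0.0104). KO and WT did not overlap in either. Slc25a20, which carries acylcarnitines into mitochondria for fatty acid oxidation, was at 16.9, 8.32 and 22.8 FPKM in KO, against 3.45, 3.64 and 2.66 FPKM in WT, and rose by 1.91 ± 0.34 (adjusted p = 0.00242). Slc25a22 was at 1.74, 0.868 and 2.50 FPKM in KO, against 11.6, 13.7 and 5.97 FPKM in WT, and fell by 2.06 (SE 0.36, adjusted p = 0.00204). The citrate carrier Slc25a1 was at 7.57, 19.1 and 17.6 FPKM in KO, against 62.4, 39.4 and 38.0 FPKM in WT, and fell by 1.65 (SE 0.34, adjusted p = 0.00545). The dicarboxylate carrier Slc25a10 fell by 1.02 (SE 0.31, adjusted p = 0.0266), a call lost without KO E5.5 2, WT E5.5 1 or WT E5.5 2. The abundant Slc25a3 did not pass the test, with 474, 412 and 491 FPKM in KO and 528, 407 and 414 FPKM in WT.

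Among carriers of vitamins, choline and metals more were called higher than lower in the KO libraries. Of 12 lipid, choline and vitamin carriers 6 were higher and 2 lower, and of 18 metal carriers 8 were higher and 2 lower. Over all genes tested 15.6% were higher and 18.5% lower, and whether these groups differ from other genes was not tested. Slc46a1 was at 39.5, 22.6 and 20.2 FPKM in KO, against 5.49, 3.23 and 2.71 FPKM in WT, a change of 2.55 ± 0.32 (adjusted p = 0.000345). Slc44a1, a choline transporter, was at 42.2, 20.5 and 21.97 FPKM in KO, against 2.56, 4.96 and 4.82 FPKM in WT, a change of 2.48 ± 0.33 (adjusted p = 0.000502). Every KO library stood several-fold above every WT library in both. The zinc importer Slc39a1 was at 117, 53.0 and 65.3 FPKM in KO, against 22.7, 29.1 and 25.9 FPKM in WT (1.49 ± 0.28, adjusted p = 0.00308). The copper importer Slc31a1 was at 27.1, 25.3 and 25.0 FPKM in KO, against 8.57, 10.4 and 13.5 FPKM in WT (1.201 ± 0.22, adjusted p = 0.00283). Slc11a2, the iron importer DMT1, and the zinc carriers Slc30a4, Slc30a6, Slc39a2, Slc39a6 and Slc39a11 also rose. Against these, Slc39a7 was at 16.9, 19.8 and 20.5 FPKM in KO, against 41.0, 49.3 and 50.7 FPKM in WT, and fell by 1.26 (SE 0.19, adjusted p = 0.00109). Slc39a4 was the other metal carrier that fell (-1.54 ± 0.39, adjusted p = 0.0123). The riboflavin carrier Slc52a2 and the ascorbate carrier Slc23a2 were the vitamin carriers that fell.

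Among carboxylate and organic ion carriers 4 of 9 were higher and 0 lower, against 15.6% and 18.5% of all genes. Slc16a6, a monocarboxylate transporter that exports ketone bodies in liver, was at 12.8, 17.9 and 11.2 FPKM in KO, against 1.75, 1.81 and 1.99 FPKM in WT, a change of 2.37 ± 0.27 (adjusted p = 0.000179). The lactate and pyruvate carrier Slc16a1 was at 22.9, 30.3 and 21.4 FPKM in KO and 18.3, 20.5 and 17.1 FPKM in WT, without overlap but short of the threshold (adjusted p = 0.183). The glucose transporter Slc2a3 (GLUT3) was at 227, 145 and 42.3 FPKM in KO, against 24.6, 41.0 and 38.2 FPKM in WT, and was called at 1.70 ± 0.55 (adjusted p = 0.0464). KO E5.5 3 stood just above the WT range, and the call was lost without KO E5.5 1, KO E5.5 2 or any 1 of the 3 WT libraries (adjusted p = 0.0787 to 0.159). Ion carriers had the lowest share of calls, 1 of 17. Slc20a1, a phosphate carrier at 42.3, 43.3 and 53.8 FPKM in KO and 31.5, 53.3 and 42.0 FPKM in WT, overlapped fully (adjusted p = 0.627). Of 10 nucleoside and nucleotide sugar carriers 2 were higher and 0 lower, among them the nucleoside carrier Slc29a1 (0.83 ± 0.27, adjusted p = 0.0388). The scaffold gene Slc9a3r1 fell by 0.93 (SE 0.18, adjusted p = 0.00355).

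The test at E5.5 was limma on log2(FPKM + 1). With the spread estimated over all 4 embryo groups 20 members were called, 18 of them among the 52, and without WT E5.5 1 or WT E5.5 2 the count was 29 or 30. Slc7a8, Slc3a2, Slc25a4, Slc25a20, Slc44a1, Slc16a6, Slc7a3, Slc7a7, Slc1a5, Slc25a13 and Slc25a22 kept an adjusted p under 0.05 with the shared spread, at 0.0474 or less.

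**Figure D3:**
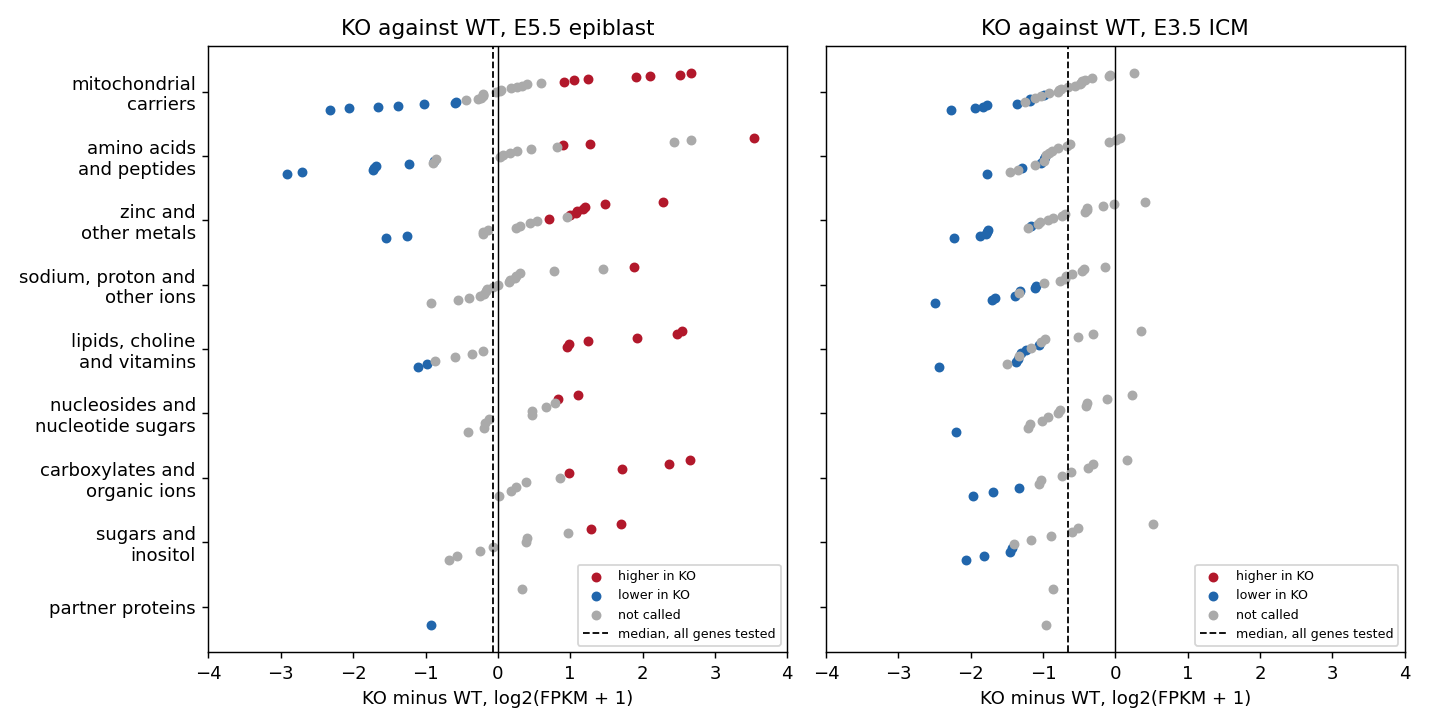
Change of each tested Slc member, KO minus WT on the log2(FPKM + 1) scale, by substrate group, at E5.5 (left) and in E3.5 ICM (right); red points were called higher in KO, blue points lower, grey points were not called, and the dashed line is the median of all genes tested. At E5.5 calls lie on both sides of 0, while in ICM all 40 calls lie below 0 and the dashed line stands at -0.65.

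**Figure D4:**
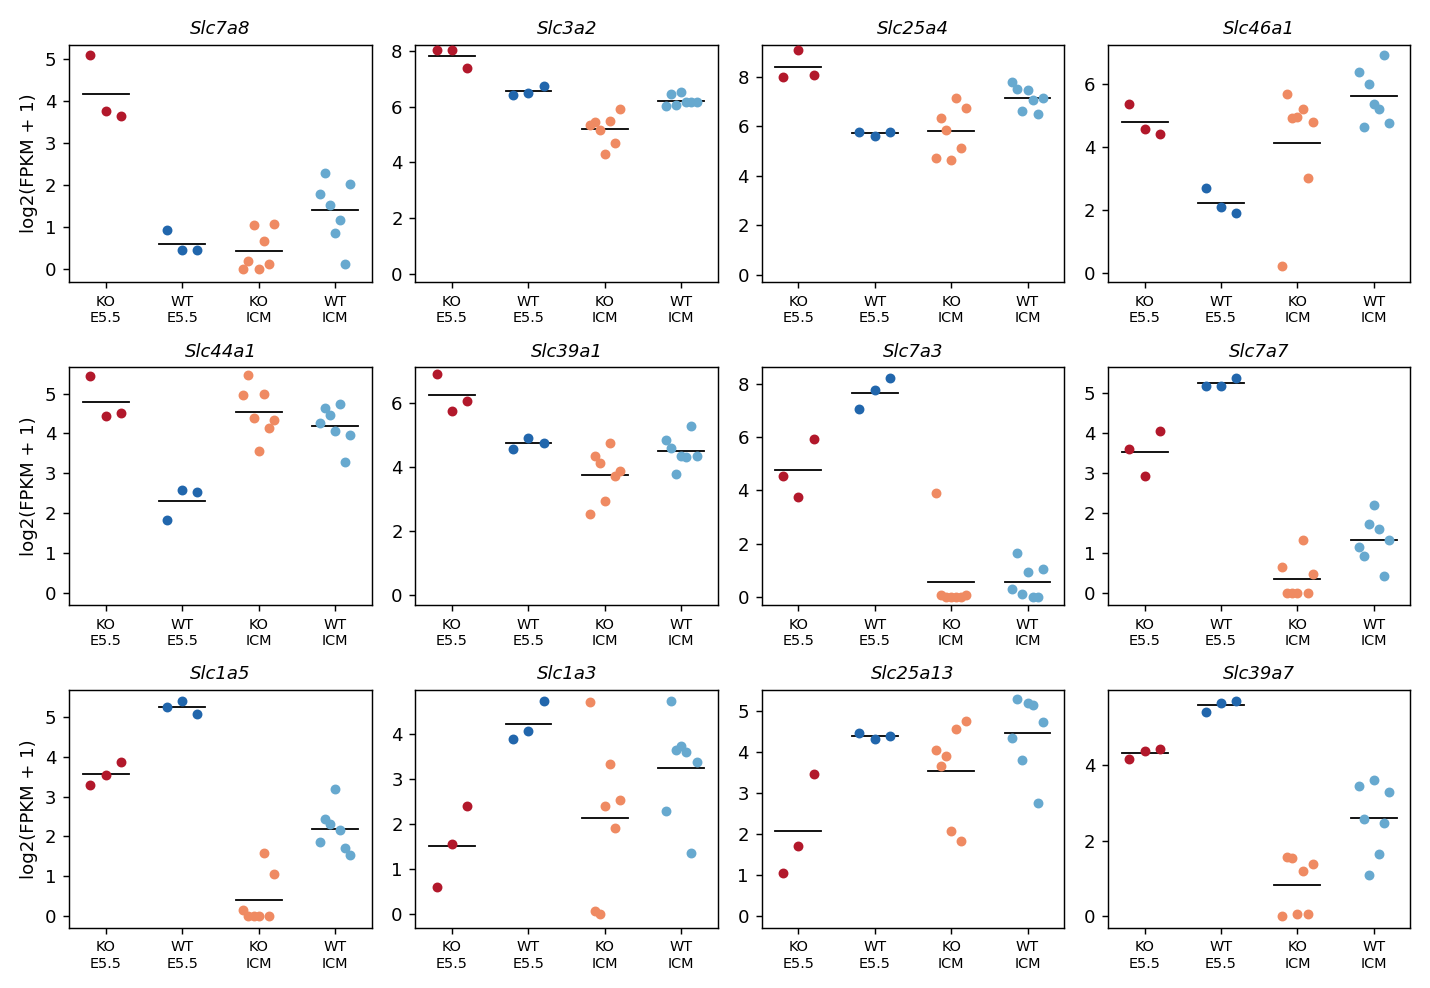
Level, log2(FPKM + 1), of 12 members in every embryo library, KO left of WT at each stage, with bars at group means. Slc7a8, Slc3a2, Slc25a4, Slc46a1, Slc44a1 and Slc39a1 lie higher in the 3 KO E5.5 libraries than in the 3 WT E5.5 libraries, and Slc7a3, Slc7a7, Slc1a5, Slc1a3, Slc25a13 and Slc39a7 lie lower.

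In the ICM no member was higher in KO and many were lower, and most calls were lost without the 3 KO libraries with the fewest detected genes. Trophectoderm markers were lower too, 4 of 7 tested (Cldn4, Gata3, Krt8 and Tead4; median -1.85 over the 7), with sums of 26.8 to 163 FPKM in KO ICM and 48.2 to 984 FPKM in WT ICM libraries, and their part in the result was not tested. Of 125 members tested 40 were lower and 0 higher. Over 5443 genes tested 28.3% were called, 3.44% higher and 24.9% lower. The median change was -0.97 log2 units over members and -0.65 over all genes, and KO and WT libraries did not overlap in 3 members, against 4.61% of all genes. Without KO ICM 1, 4 and 6 only 7 members were called, all lower and all among the 40, and the median over all genes was -0.34. With detected genes per library as a covariate 0 members were called by limma, with 10 at an unadjusted p under 0.05. Detected genes numbered 3628 to 5136 in KO ICM and 5110 to 5718 in WT ICM libraries, so this covariate nearly follows genotype. That fit therefore cannot separate detection from the knockout. Quantile normalization, which moved the median of all genes to 0.03, left 11 calls, 2 higher and 9 lower, and median ratio scaling, with that median at -0.26, left 16, 1 higher and 15 lower. Leaving out 1 library gave 20 calls without WT ICM 4 and 25 without WT ICM 1, KO ICM 1 or KO ICM 4. The part of detection in these calls was not tested beyond these values. The WT ICM libraries are shared with the comparison of stages.

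Slc4a11 had the largest decrease. It was at 0.810 to 11.5 FPKM (median 7.94) in KO ICM, against 13.1 to 69.3 FPKM (median 40.7) in WT ICM, a change of -2.49 ± 0.46 (adjusted p = 0.00251). The KO and WT libraries did not overlap, and without KO ICM 1, 4 and 6 the change was -1.77 (adjusted p = 0.0247). Slc5a6 was at 0 to 15.2 FPKM (median 9.04) in KO ICM, against 15.0 to 115 FPKM (median 43.0) in WT ICM, a change of -2.44 ± 0.58 (adjusted p = 0.00741). The highest KO library was just above the lowest WT library, and the change without the 3 libraries was -1.75 (adjusted p = 0.0413). Slc25a22 was at 0 to 1.62 FPKM (median 0) in KO ICM, against 1.89 to 6.82 FPKM (median 3.39) in WT ICM (-1.83 ± 0.34, adjusted p = 0.00261), and -1.57 without the 3 libraries (adjusted p = 0.0321). Slc3a2 was at 18.4 to 59.8 FPKM (median 38.9) in KO ICM, against 63.5 to 90.1 FPKM (median 70.1) in WT ICM. The groups did not overlap, at -1.03 ± 0.25 (adjusted p = 0.00787) with all libraries and -0.72 without the 3 (adjusted p = 0.0441). The phosphate carrier Slc20a1 and Slc1a5 also kept a call without the 3 libraries, at -1.42 (adjusted p = 0.0443) and -1.51 (adjusted p = 0.038).

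The calls of the other members named in ICM were lost when the 3 libraries were left out, with smaller decreases remaining. Slc25a44, a mitochondrial carrier of branched-chain amino acids, was at 0 to 13.6 FPKM (median 2.83) in KO ICM, against 13.1 to 39.3 FPKM (median 18.3) in WT ICM, and changed by -2.27 ± 0.54 with all libraries and -1.57 without the 3 (adjusted p = 0.0632). Slc31a1 was at 0.400 to 13.4 FPKM (median 3.23) in KO ICM, against 12.1 to 18.8 FPKM (median 14.3) in WT ICM, at -1.87 ± 0.46 with all libraries and -1.13 without the 3 (adjusted p = 0.0571). In both genes the highest KO library reached just into the WT range. Slc39a4, Slc35a4, Slc5a11, Slc25a1 and Slc37a2, at -2.23, -2.21, -2.06, -1.94 and -1.46 with all libraries, were at -0.93, -0.57, -1.10, -0.99 and -0.74 without the 3 (adjusted p = 0.0627 to 0.345). By substrate, calls were spread over 8 of the 9 groups, from 1 of 11 nucleoside and nucleotide sugar carriers to 7 of 16 ion carriers. Among mitochondrial carriers 8 of 25 were called and among amino acid carriers 5 of 18. All these calls were lower, as were 24.9% of all genes tested. The abundant Slc25a5 was at 589 to 1640 FPKM (median 973) in KO ICM and 538 to 1322 FPKM (median 735) in WT ICM, and did not pass the test (0.26 ± 0.25, adjusted p = 0.424).

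The KO and WT libraries of the 2 stages are separate, so calls could be set side by side. Of 114 members tested at both stages, 36 were lower in KO ICM and 18 lower at E5.5, and 11 were lower at both, which is 30.6% of the ICM list and 61.1% of the E5.5 list. Over all 5143 genes tested at both stages the shares were 19.2% and 29.4%, and whether members differ from other genes in this was not tested. The 11 lower at both were the amino acid carriers Slc1a5, Slc7a7 and Slc43a2, the mitochondrial carriers Slc25a1, Slc25a10, Slc25a22 and Slc25a39, the zinc carriers Slc39a4 and Slc39a7, and the vitamin carriers Slc23a2 and Slc52a2. Another 8 were lower in KO ICM and higher at E5.5, 22.2% of the ICM list and 25.8% of the 31 higher at E5.5 (15.7% and 24.1% over all genes): Slc3a2, Slc5a6, Slc16a6, Slc16a13, Slc19a2, Slc25a4, Slc31a1 and Slc39a11.

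The difference of the KO effects, E5.5 minus ICM, was tested directly. Of 136 members 29 were called, 27 with a more positive effect at E5.5 and 2 with a more negative one. Among 5917 genes 14% were called, 10.6% more positive and 3.38% more negative, and the median difference was 0.997 log2 units over members and 0.56 over all genes. Slc7a8 had the largest difference, 4.5 ± 0.60 (adjusted p = 2.94e-05), from an effect of 3.54 at E5.5 and -0.96 in ICM. Slc25a4 differed by 4.04 ± 0.63 (adjusted p = 0.000143), with 2.67 at E5.5 and -1.36 in ICM. Slc16a6 differed by 3.70 ± 0.74 (adjusted p = 0.00204), Slc3a2 by 2.30 ± 0.40 (adjusted p = 0.000448) and Slc25a20 by 2.69 ± 0.61 (adjusted p = 0.00558). In the negative direction Slc7a3 differed by -2.92 ± 0.96 (adjusted p = 0.0455), and in ICM it was at most at 2.16 FPKM in every library but KO ICM 1, which had 13.8 FPKM. The call of Slc7a3 was lost under many settings. With a detected-gene covariate, which nearly follows genotype in ICM, 11 members were called. With median ratio scaling 16 were called, and without KO E5.5 1 the count was 12. Without WT E5.5 1 it was 14, and without WT E5.5 2 or WT E5.5 3 it was 15.

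In single E4.5 cells no test was made, since the labels tie no cell to an embryo and each group counts as 1 sample. Counts past 2-fold here use ratios of group means on FPKM + 1, among genes with a mean of 1 FPKM or more in either group. Of 111 members so kept, 31 were at least 2-fold higher and 43 at least 2-fold lower in KO than in WT epiblast cells, against 19.7% and 34.5% of all genes. The median log2 ratio was -0.04 over members and -0.23 over all genes. KO epiblast cells had 43 to 66 members at 1 FPKM or more and WT epiblast cells 61 to 81, and genes at 1 FPKM or more numbered 3026 to 3628 in KO and 3878 to 4682 in WT, so detection moved with genotype and its part was not tested. Amino acid carriers leaned lower, with 12 of 18 at least 2-fold lower and 2 higher.

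Slc38a2 was at 0, 0.0389 and 0 FPKM in KO epiblast cells, against 11.005 to 51.7 FPKM (median 31.9) in WT epiblast cells. Slc7a7 was at 0.177, 0.267 and 0.178 FPKM in KO epiblast cells, against 10.4 to 105 FPKM (median 50.4) in WT epiblast cells. All 3 KO cells lay below all 7 WT cells in both genes. Slc7a3 was at 0.494, 55.6 and 36.4 FPKM in KO epiblast cells, against 40.8 to 231 FPKM (median 181) in WT epiblast cells, with 1 KO cell inside the WT range. Slc25a1 was at 0.358, 51.4 and 0 FPKM in KO epiblast cells, against 59.4 to 314 FPKM (median 125) in WT epiblast cells. Slc29a1 was at 32.3, 32.7 and 0.301 FPKM in KO epiblast cells, against 65.4 to 255 FPKM (median 96.2) in WT epiblast cells. The KO and WT cells did not overlap in these 2 carriers of citrate and nucleosides.

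Among members averaging at least 20 FPKM in KO epiblast cells, 5 had the largest ratio of mean FPKM, KO over WT. They were Slc37a2, Slc10a3, Slc43a3, Slc24a5 and Slc27a1, and on FPKM + 1 Slc10a3 came first and Slc37a2 after Slc43a3. Some members under that level had larger ratios than the last of these. Slc24a5 was at 37.1, 66.8 and 42.3 FPKM in KO epiblast cells, against at most 9.33 FPKM in WT epiblast cells, and was the only 1 of these 5 without overlap. Slc43a3 was at 66.3, 30.8 and 0.0726 FPKM in KO epiblast cells, against at most 1.91 FPKM in WT epiblast cells. Slc10a3, a bile acid carrier family member, was at 61.7, 52.1 and 0.115 FPKM in KO epiblast cells, against at most 0.476 FPKM in WT epiblast cells. In each of these last 2 genes 2 of 3 KO cells stood above every WT cell. Slc27a1, a fatty acid transport protein, was at 12.1, 126 and 86.1 FPKM in KO epiblast cells, against 0 to 19.0 FPKM (median 0.508) in WT epiblast cells. Slc37a2 was high in 1 KO cell, at 69.7 FPKM.

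**Figure D5:**
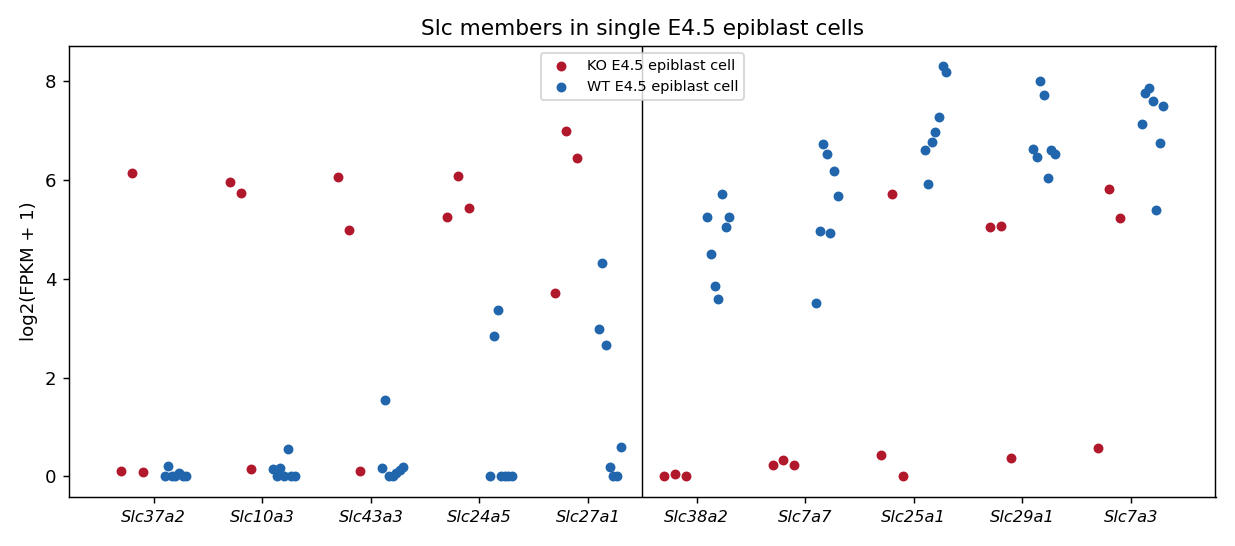
Level, log2(FPKM + 1), of the 5 Slc members with the largest ratio of means in each direction in single E4.5 epiblast cells, KO (3 cells) left of WT (7 cells) within each gene; genes left of the vertical line were higher in KO and those right of it lower. All 3 KO cells lie at or near 0 for Slc38a2 and Slc7a7, where all 7 WT cells are above 10 FPKM.

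Primitive endoderm was covered by 2 KO cells and 1 WT cell. Of 86 members kept, 38 were at least 2-fold higher and 28 at least 2-fold lower in KO, against 42.4% and 26.8% of all genes. Slc3a2 was at 105 and 131 FPKM in KO cells, against 713 FPKM in the WT cell. Slc1a5 was at 0.0931 and 0.0344 FPKM in KO cells, against 107 FPKM in the WT cell, and Slc7a3 at 0.721 and 0.308 FPKM, against 61.0 FPKM. Slc37a2 was at 35.3 and 37.0 FPKM in KO cells and listed at 0 in the WT cell, while Slc31a2, Slc35a1 and Slc4a11 were each high in 1 of the 2 KO cells. Slc50a1, Slc25a22, Slc38a10, Slc44a3 and Slc12a9 were at 27.2 to 41.9 FPKM in the WT cell and listed at 0 in KO cells. Slc3a2, Slc1a5 and Slc7a3 were named here after their values were seen.

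Genes of transport outside the solute carrier names were tested as well. Of 22 channels, ABC transporters and carrier partners tested at E5.5, 5 were higher and 4 lower in KO. Over all genes tested the shares were 15.6% and 18.5%. Basigin (Bsg), which escorts monocarboxylate carriers to the membrane, was at 929, 565 and 640 FPKM in KO, against 410, 460 and 495 FPKM in WT (0.61 ± 0.19, adjusted p = 0.0297). Embigin (Emb), its relative, was at 132, 36.0 and 119 FPKM in KO, against 186, 268 and 318 FPKM in WT (-1.59 ± 0.47, adjusted p = 0.0327). The 2 chaperones thus went opposite ways without overlap. The transferrin receptor Tfrc was at 90.4, 68.2 and 81.0 FPKM in KO, against 20.1, 28.7 and 24.9 FPKM in WT (1.66 ± 0.20, adjusted p = 0.000316). In ICM 7 of 23 of these transport genes were lower in KO and 0 higher, against 24.9% and 3.44% of all genes. Whether these transport genes differ from other genes was not tested.

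Genes of amino acid sensing by mTORC1, the kinase complex that reads amino acid supply at the lysosome, were tested beside the carriers. At E5.5 0 of 19 were higher in KO and 6 lower, against 15.6% and 18.5% of all genes, among them the Rag GTPase genes Rraga (-1.04 ± 0.32, adjusted p = 0.0294) and Rragd (-2.24 ± 0.38, adjusted p = 0.00226), named here after their values were seen. In ICM 6 of 18 were lower and 0 higher, against 24.9% and 3.44% of all genes. Between the WT stages 8 of 19 were higher at E5.5 and 1 lower, against 37.3% and 18.9% of all genes. Whether the list differs from other genes was not tested. Of Slc genes known to be induced by ATF4, the transcription factor of the amino acid response, 4 of 5 tested were higher in WT E5.5 than in WT ICM. Of 6 tested between KO and WT at E5.5, Slc3a2 and Slc7a1 were higher and Slc1a4, Slc1a5 and Slc7a3 lower.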

How the data were processed

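Expression was deposited by the authors as FPKM, fragments scaled to transcript length and library, in 1 table of 7186 lines over 33 RNA libraries. Trim Galore 0.6.4, STAR 2.7.3 and mm10 are named in the submitters' processing notes, without the step each served or an annotation. A total of 2 gene names were repeated, and their 4 lines were left out, which left 7182 genes. H3K4me3, ATAC and methylation data were not analysed here.

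Members and gene lists were chosen with earlier results of these data known, and Slc7a6os was placed in its group after its name was seen in the table. The test was limma 3.58.1 (R 4.3.3), with a robust, trended prior, on log2(FPKM + 1). It ran over genes that averaged 1 FPKM or more in the libraries compared. P values were adjusted by Benjamini-Hochberg over all genes tested, and 0.05 was the threshold. The pseudocount of 1 understates changes of low genes. The script was tested on simulated data. Errors are standard errors, and p values measure the spread between single embryos.

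Named members were the 10 called members with the largest change each way per comparison (higher group averaging 10 FPKM or more), the 2 most abundant of each substrate group, and in single cells the 5 each way with the largest ratio and at least 20 FPKM. A gene outside this rule was named from its group's calls. Some members that the rule or the calls would name are not reported here. Promoters came from RefSeq (GRCm38.p6). All 136 members matched a single RefSeq symbol. Alternatives were the pseudocount, the filter, the scaling, covariates, array weights, a replicate block and leaving out each library. Figures were drawn with Python 3.11.15 and matplotlib 3.10.9.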

Additional observations from a re-analysis of the deposited data

Results flagged for a closer look

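Of 152 pairs of a named member and a group of 4 to 10 libraries, 17 had a library far from the rest. Chance flags about 1 in 20 groups. Low in the WT ICM group were Slc10a3 (0.115 FPKM) and Slc39a10 (1.88 FPKM) in WT ICM 3, and Slc31a2 (1.61 FPKM), Slc35a4 (27.5 FPKM) and Slc37a2 (2.38 FPKM) in WT ICM 6. In the KO ICM group Slc27a1 was high in KO ICM 7 (1.49 FPKM), Slc7a3 high in KO ICM 1 (13.8 FPKM) and Slc34a2 low in KO ICM 1 (0.0221 FPKM). Among WT E4.5 epiblast cells, high values were Slc10a3 in cell 5 (0.476 FPKM), Slc37a2 in cell 2 (0.153 FPKM), Slc43a3 in cell 2 (1.91 FPKM), Slc5a6 in cell 3 (28.4 FPKM), Slc7a8 in cell 4 (0.929 FPKM) and Slc9a3r1 in cell 2 (329 FPKM). Low values were Slc16a1 in cell 3 (0.279 FPKM), Slc25a13 in cell 4 (0.720 FPKM) and Slc39a4 in cell 1 (0 FPKM). Distance was judged on log2(FPKM + 1).

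The KO effect differed between E5.5 and ICM, by a test of the difference itself, in 14 of 51 named members. Most of these were named because this same test called them, so the count says nothing about members as a set. Over all 5917 genes tested 14% were called, and the median difference was 0.56. The difference (E5.5 minus ICM, log2) was 4.5 for Slc7a8, 4.05 for Slc46a1, 4.04 for Slc25a4, 3.70 for Slc16a6, 3.42 for Slc5a6, 3.40 for Slc1a1, 3.23 for Slc6a14, 3.07 for Slc31a1, 2.69 for Slc25a20, 2.66 for Slc4a11, 2.30 for Slc3a2, 2.23 for Slc39a1, 2.13 for Slc44a1 and -2.92 for Slc7a3. Slc1a1 and Slc6a14 were listed at 0 in all WT E5.5 libraries, so their values depend on the pseudocount. Neither was called between KO and WT at E5.5, and the level of Slc6a14 there was set by a single KO library. No cause was tested.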

How the results depend on the processing

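With genes averaging 5 FPKM or more, 24 members were called between KO and WT in ICM, 33 in E5.5 libraries and 15 for the difference of KO effects (40, 52 and 29 as reported). Calls numbered 11 in ICM and 19 for the difference under quantile normalization, and 16 and 16 under median ratio scaling. One spread over the 4 embryo groups gave 20 calls at E5.5. For the difference of effects a pseudocount of 0.1 gave 14 calls and array weights 46. Chosen after seeing the data, leaving out KO ICM 1, 4 and 6 gave 7 calls in ICM, and a covariate of detected genes gave 0 in ICM and 11 for the difference. With that covariate Slc25a1 (0.21), Slc25a4 (0.17), Slc35a4 (0.56) and Slc39a4 (0.20) turned positive in ICM, with adjusted p of 0.927 to 0.983. The covariate nearly follows genotype in ICM, so these fits cannot separate detection from the knockout. Leaving out each library gave 20 to 48 calls in ICM, 29 to 54 at E5.5, 12 to 36 for the difference and 46 to 65 between the WT stages. The stage comparison stayed within 1.5 times its 60 calls in every alternative run. The causes were not tested.

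Same-numbered libraries share only a number: their deviations correlated at -0.133 to 0.155 in ICM and -0.022 to 0.118 at E5.5. A replicate block gave 34 calls in ICM, 50 at E5.5, 25 for the difference and 57 between stages. Depth is unknown, which limits genes near 0 most.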
